A study of Homo sapiens with 79 samples.

Results

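Golgins are long coiled-coil proteins of the Golgi apparatus. They are anchored to its membranes at one end and reach into the cytoplasm to catch vesicles. GOLGB1 (giantin) is held in the membrane at the rims of the cisternae. The relatives considered with it are GOLGA2 and TRIP11, which act on the cis side of the stack, GOLGA3, GOLGA5, which like GOLGB1 has a membrane anchor, and the GRIP-domain golgins GOLGA1, GOLGA4, GCC1 and GCC2 of the trans-Golgi network. GRIP domains are known to bind the small GTPase ARL1, most clearly in GOLGA1 and GOLGA4. The proteins do their work at the Golgi, whereas the measurement here concerned their mRNAs. These 9 mRNAs were taken by gene symbol from a table of 48453 genes, with their 69 isoforms from a table of 185661. They were chosen by a measured value, since GOLGB1 stood far above input in the STAG2 immunoprecipitates, and the question was whether the mRNAs of its relatives did so too. For that reason GOLGB1 in STAG2 fRIP is described here without a test.

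The study used fRIP-seq in K562, an established human erythroleukemia line. Cells cross-linked lightly with formaldehyde were lysed and sonicated, a protein was immunoprecipitated with its antibody, and the RNA recovered with it was sequenced. The panel held 24 proteins, with 3 libraries for each except EZH2 and STAG2, which had 2 each, and 9 libraries of input RNA from lysate without immunoprecipitation, in 3 labelled sets of 3. ADAR, HNRNPH1, HNRNPU, HUR, IMP1 and PABP are RNA binding proteins (RBPs), and the other targets are chromatin-associated proteins (CAPs). All libraries came from untreated cells of that one line, and replicates came from separate dates and lysates. STAG2, a subunit of the cohesin complex, was included by the study as a negative control because its immunoprecipitation recovered little RNA. The labels number its libraries 1 and 3, while the second column for STAG2 in the tables carries another number, so it is called the library without a number. The 24 comparisons with input share the same 9 input libraries and are not independent of each other.

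Values are FPKM, fragments per kilobase of transcript scaled to the mapped fragments of the library, and are relative within a library. A gene was called when its adjusted p-value in limma was under 0.05 and its change was over 2-fold, and 25442 genes were tested. A change on the log2 scale refers to log2(FPKM + 1), which understates the change of low genes. All 9 golgin genes were tested in every fRIP. The depth, read from the steps of low values, ran from 1.89 to 57.5 fragments per FPKM and kilobase, with 8.84 and 9.53 in the STAG2 libraries. Of 9 markers of the K562 line, 8 were at 1 FPKM or more in every input library, and HBZ went as low as 0.517. Of markers of other blood cells, CD3E, MS4A1 and CD14 stayed under 1 FPKM in every input library, whereas LYZ and PTPRC did not.

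Most of the golgin genes are long and have many exons. GOLGB1 (ENSG00000173230.11) lies on the minus strand of chromosome 3, at chr3:121382046-121468813 in hg19, spans 86.8 kb and has 22 exons in a canonical transcript of 11186 nt. GOLGA4 (ENSG00000144674.12), chr3:37284682-37408370 on the plus strand, is the largest of the genes at 123.7 kb and has 24 exons. GCC1 (ENSG00000179562.2), chr7:127220682-127233665 on the minus strand, spans 13.0 kb and has 2 exons, and GOLGA2 spans 20.2 kb. The others with 20 exons or more are GOLGA1 (ENSG00000136935.9, chr9:127640554-127710771, 23 exons), GOLGA2 (ENSG00000167110.11, chr9:131018108-131038305, 27 exons), GOLGA3 (ENSG00000090615.8, chr12:133345488-133405729, 24 exons), GCC2 (ENSG00000135968.15, chr2:109065563-109125871, 23 exons) and TRIP11 (ENSG00000100815.8, chr14:92432335-92507240, 21 exons). GOLGA5 (ENSG00000066455.8, chr14:93260650-93306292) has 13. The median over 19553 coding genes was 8 exons, a span of 27.4 kb and a transcript of 2902 nt. These features come from a later annotation than the one behind the tables.

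The coding sequence of a coiled coil is rich in codons for glutamate and lysine, which are made of purines. Purines made up 59.6% of the GOLGB1 transcript and 60.9% of that of GOLGA4, against a median of 50.5% over coding genes. GOLGA1, at 53.3%, GOLGA3, at 53.4%, and GCC1, at 54.6%, were nearer to that median, and the other 4 lay between 55.4% and 58.0%. The hexamer GAAGAA occurred in all 9 transcripts, overlapping copies included. GOLGB1 held 42 copies, or 3.75 per kb, and GOLGA4 34, or 4.36 per kb, while GCC1 held 3, or 0.727 per kb. Across all coding genes the median was 0.665 per kb, and 78.0% of canonical transcripts held at least 1 copy on the sense strand and 67.9% on the other. The study had linked an AG-rich motif to SUZ12 on these same data, so the hexamer is no independent choice. The following stretches of 30 bases show it in GOLGB1, in the relative with the most copies per kb and in TRIP11. They are coding in each case and were read from the hg19 genome on the strand of the gene at chr3:121416310-121416339 (exon 13 of 22), chr3:37343709-37343738 (exon 10 of 24) and chr14:92482074-92482103 (exon 6 of 21). Capitals mark the hexamer, and each window is the first with the most copies in its transcript.
GOLGB1: ctgcaaagagtcagtagattgGAAGAAGAA
GOLGA4: catgaaaccctggaaatgaaaGAAGAAGAA
TRIP11: catcgaGAAGAAttaagtgactatGAAGAA

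Some of these genes share sequence with other loci, and reads of 31 bases cannot be told apart there. No stretch of that length in the GOLGB1, GOLGA1 and GCC1 transcripts occurred in another gene. For GCC2 the share was 19.8%, mostly with RGPD6, RGPD5 and RGPD4. For GOLGA2 it was 11.4%, with the pseudogene GOLGA2P5 among the other loci, and the values of GCC2 and GOLGA2 are uncertain to that extent. GOLGA3 shared 5.65%, TRIP11 5.25%, GOLGA5 1.93% and GOLGA4 0.231%. Antisense genes covered 4.51% of the exon bases of GOLGA4, 0.983% of those of GOLGB1 and 0.897% of those of GCC2, and whether reads were counted by strand is not given in the sources used here.

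In input, all 9 mRNAs were present at moderate levels. GOLGB1 ran from 10.2 over a median of 17.3 to 22.2 FPKM. GOLGA2 was the highest, from 42.6 over 63.7 to 70.7 FPKM, and GOLGA5 the lowest, from 10.5 over 12.2 to 13.9 FPKM. The order of the means was GOLGA2, at 63.3 ± 8.33 FPKM (SD, n = 9), GOLGA4 at 54.7 ± 9.76, GCC2 at 45.5 ± 7.10, GOLGA3 at 34.2 ± 3.75, GOLGA1 at 20.7 ± 2.72, GOLGB1 at 17.2 ± 3.66, TRIP11 at 16.9 ± 2.78, GCC1 at 15.2 ± 2.26 and GOLGA5 at 12.05 ± 1.02. The ranges of neighbours in this order overlapped, apart from GOLGA3 and GOLGA1, where the lowest GOLGA3 library (28.7) lay above the highest of GOLGA1 (23.7). The 3 input sets differed for some genes. GOLGA4 averaged 67.4, 50.1 and 46.6 FPKM in sets 1, 2 and 3, and GOLGB1 21.0, 14.4 and 16.2. GOLGA3 was nearly equal, at 33.7, 33.8 and 35.2. The SDs, the limma fit and the permutation tests pool the sets and take no account of them.

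GOLGB1 mRNA stood far above input in STAG2 fRIP, at 3940.0 FPKM in the library numbered 1 and at 1686 FPKM in the STAG2 library without a number. Neither came near the highest input library. On the log2 scale the mean difference was 7.18, or 144.6-fold. With a library left out it ran from 6.56 to 7.79, and the 2 STAG2 libraries had an SD of 0.87 on that scale. The mean difference chose the genes and is given as a description. In the 23 other fRIPs the log2 difference of GOLGB1 from input ran from −1.01 to 1.68.

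**Figure D1:**
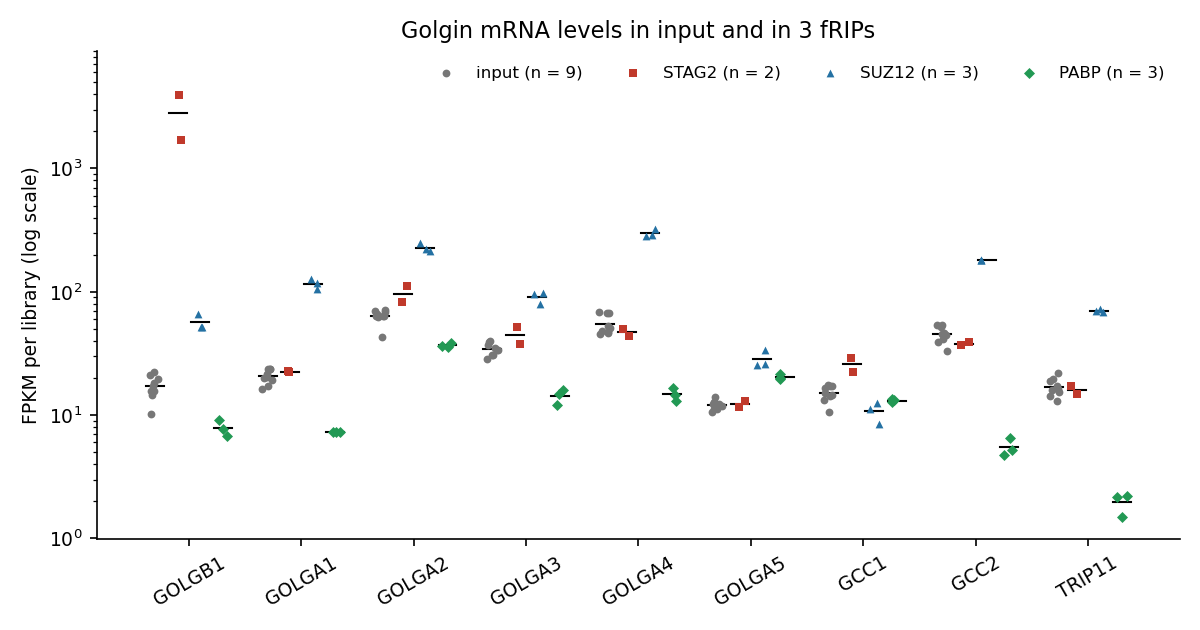
FPKM of the 9 golgin mRNAs on a log axis, 1 point per library, in input and in 3 fRIPs. GOLGB1 in the STAG2 libraries sits at 1686 and 3940.0, while the 8 relatives in STAG2 fRIP sit in or close to the range of their inputs.

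The excess of GOLGB1 in STAG2 fRIP was spread over most of its isoforms and not over 1 of them. The transcript ENST00000482512.1, now classed as a target of nonsense-mediated decay, was listed at 2045 and 881 FPKM, against a mean of 7.69 in input. The coding transcript ENST00000340645.5 was listed at 724 and 340 FPKM, against 2.78, and the coding ENST00000393667.3 at 555 and 199 FPKM, against 2.34. These 3 transcripts were high in both STAG2 libraries. The retained-intron transcript ENST00000472829.1 was estimated at 0 in both, with a mean of 0.347 in input, and ENST00000472475.1 stood at 30.1 in replicate 1 and was listed at 0 in the other library. For STAG2, 6 of the 8 isoforms passed the call in the upward direction, where 4.80% of 104506 isoforms tested were called in either direction. The count is a description, because these isoforms make up the gene value behind the choice. FPKM of overlapping isoforms are estimates from shared reads.

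None of the 8 relatives shared the enrichment of GOLGB1. In STAG2 fRIP, 0 of 8 were called by limma, where 0.979% of all genes were called higher and 3.36% lower. At an unadjusted p under 0.05 there were 3, and at an adjusted p under 0.05 there were 2, GCC1 and GOLGA2, both with changes below 2-fold. The exact permutation test of 2 libraries against 9 cannot go below 0.0364. With GOLGB1 included, the median log2 difference of the 9 mRNAs was 0.12, beside −0.03 over all genes tested.

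GCC1, a GRIP-domain golgin, stood at 22.5 and 29.1 FPKM in the STAG2 libraries, both above its highest input of 17.4. Its log2 difference was 0.73 (95% interval 0.44 to 1.02), or 1.66-fold (limma, adjusted p = 0.000295; exact permutation p = 0.0364). GOLGA2, a cis-Golgi golgin, stood at 111 and 82.2 FPKM, also above every input, with a log2 difference of 0.60 (0.23 to 0.96), or 1.51-fold (limma, adjusted p = 0.0197; exact permutation p = 0.0364). These are the only relatives whose STAG2 and input libraries did not overlap. GOLGA3 came next at 37.9 and 51.6 FPKM, with a log2 difference of 0.37 (0.04 to 0.69) that did not pass (limma, adjusted p = 0.129). The sizes of these differences depend on single STAG2 libraries, while their signs did not change. Without STAG2 replicate 1, GCC1 was at 0.91, GOLGA2 at 0.39 and GOLGA3 at 0.58. Without the STAG2 library without a number, GCC1 was at 0.55, GOLGA2 at 0.81 and GOLGA3 at 0.15.

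The other relatives lay within the input range, apart from GOLGA4 in STAG2 replicate 1, which was below its lowest input of 45.4 FPKM. GOLGA5, the relative with a membrane anchor like that of GOLGB1, stood at 13.1 and 11.5 FPKM, with a log2 difference of 0.03 (−0.27 to 0.33). TRIP11 stood at 14.7 and 17.1 FPKM, with −0.08 (−0.41 to 0.26). Of the GRIP-domain golgins, GOLGA1 stood at 22.2 and 22.6 FPKM, with 0.12 (−0.18 to 0.43), GOLGA4 at 43.997 and 50.3 FPKM, with −0.19 (−0.52 to 0.13), and GCC2 at 37.03 and 38.8 FPKM, with −0.24 (−0.57 to 0.09). The upper ends of these 5 intervals are all far below the value of GOLGB1. Their adjusted p-values in limma ran from 0.367 to 0.922.

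A comparison of STAG2 fRIP with the mean of the other 23 fRIPs leaves the input libraries out. Again 0 of 8 relatives were called by limma, where 2.46% of genes were called in either direction, with 3 relatives at an unadjusted p under 0.05. GOLGA5 was lower in STAG2 fRIP by a log2 difference of −0.41 (95% interval −0.69 to −0.14, limma adjusted p = 0.0341), and GCC1 was higher by 0.40 (0.13 to 0.67, limma adjusted p = 0.0359), both under 2-fold. The other relatives ran from −0.42 for GOLGA4 (limma, adjusted p = 0.0536) to 0.19 for GOLGA2, while GOLGB1 stood 7.01 higher, as a description.

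The isoforms of the relatives gave a like picture. Of 61 listed isoforms, 59 were tested in STAG2 fRIP, of which 0 were called higher and 3 lower in limma, and 14 had an unadjusted p under 0.05. Of all isoforms 2.82% were called lower and 4.80% in either direction, so 3 of 59 is close to what isoforms in general gave. The 3 are named here for completeness. GOLGA4 ENST00000361924.2 stood at 1.32 and 0.949 FPKM, below its input range of 2.63 to 5.46, with a log2 difference of −1.26 (limma, adjusted p = 0.00283). GCC2 ENST00000447558.1 stood at 2.53 and 1.19 FPKM, below 4.54 to 7.84 in input, with −1.31 (limma, adjusted p = 0.0307). GOLGA5 ENST00000355976.2 stood at 0.0970 and 0.000268 FPKM, below 1.59 to 6.76 in input, with −2.08 (limma, adjusted p = 0.0122). Without the STAG2 library without a number, 1 isoform was called.

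Genes that act with the golgins had no call in STAG2 fRIP. Of 12 golgin partner GTPases and adaptors, among them ARL1 and RAB6A, 20 other Golgi matrix and tether genes, and 8 subunits of the COG tethering complex, 0 were called in either direction by limma, with 5, 3 and 2 at an unadjusted p under 0.05 and 3, 2 and 2 at an adjusted p under 0.05. With 0.979% of all genes called higher and 3.36% lower, lists of this size would hold few calls in any case. Their median log2 differences were 0.11, 0.04 and 0.18, beside the same −0.03 over all genes tested. Of 28 long coiled-coil proteins of other places, 1 was called higher and 0 lower, with 11 at an unadjusted p under 0.05, 7 at an adjusted p under 0.05 and a median of 0.17. The called gene was CEP350, which encodes a large centrosomal protein, at 344 and 325 FPKM in the STAG2 libraries against 32.5 to 49.2 in input. Both libraries lay above all 9 inputs, by a log2 difference of 3.05 or 8.30-fold (limma, adjusted p = 1.34e-26). The next in the list, named after its values were seen, was the centrosomal CEP250, at a log2 difference of 1.00 that fell just short of 2-fold (limma, adjusted p = 6.05e-07).

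**Figure D2:**
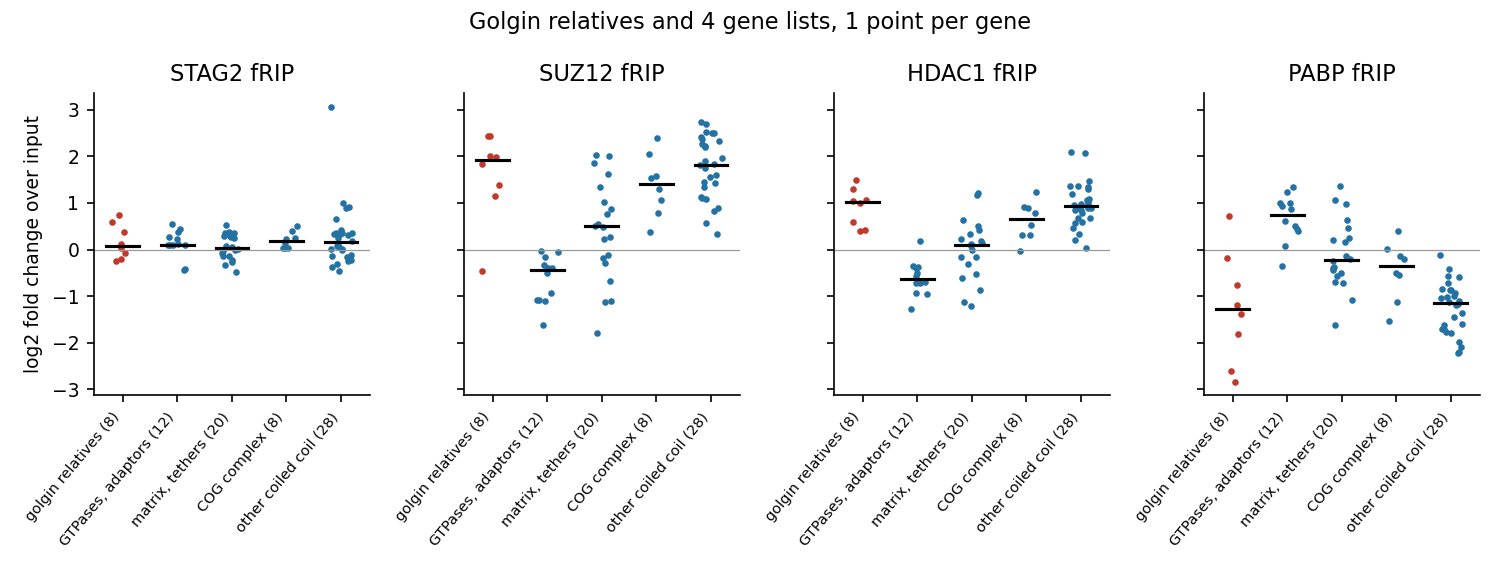
Log2 fold change over input, 1 point per gene, for the 8 golgin relatives and 4 gene lists in STAG2, SUZ12, HDAC1 and PABP fRIP. In STAG2 fRIP the list medians lie between 0.04 and 0.18, with CEP350 at 3.05 and CEP250 at 1.00 the highest points, while in SUZ12 fRIP the other coiled-coil genes lie between 0.34 and 2.74.

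Outside STAG2, golgin mRNAs were called in 12 fRIPs. Of 207 pairs of mRNA and fRIP, 28 were called higher and 12 lower. Over all genes in the same 23 fRIPs, 7.16% of pairs were called higher and 5.61% lower, so the count of lower calls was near that share. In all 40 called pairs the libraries of the fRIP did not overlap the inputs. The exact permutation p was 0.00909 in each called pair, the smallest that 3 libraries against 9 can give, and 0.0364 for EZH2. The other 11 fRIPs (ADAR, CHD1, CHD7, CTCF, DNMT1, HUR, IMP1, NUP98, PCAF, PHF8 and RBBP5) had no called golgin mRNA. Their 99 log2 differences ran from −0.81 to 0.95, with 45 at an unadjusted p under 0.05 in limma and 37 at an adjusted p under 0.05. GCC2 and TRIP11 were called lower most often, in 4 fRIPs each, and GOLGA2, GOLGA5 and GCC1 were called lower in none of the 23 fRIPs. These counts depend on the scaling. With each library centred on its median, GCC2 and TRIP11 were called lower in 2 fRIPs each, and some fRIPs without a call had one. In ADAR fRIP, which centring moves by 0.98, GCC1 (−1.79), GOLGA5 (−1.53) and GOLGB1 (−1.19) were then called lower, where 35.2% of all genes were. GOLGA5 was then called higher in IMP1 (1.31) and PCAF (1.13) fRIP, and GCC1 in PCAF (1.10) and NUP98 (1.02) fRIP. Where the share of all genes called with centring is not given, here and below, such calls are not read as a result about golgins.

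**Figure D3:**
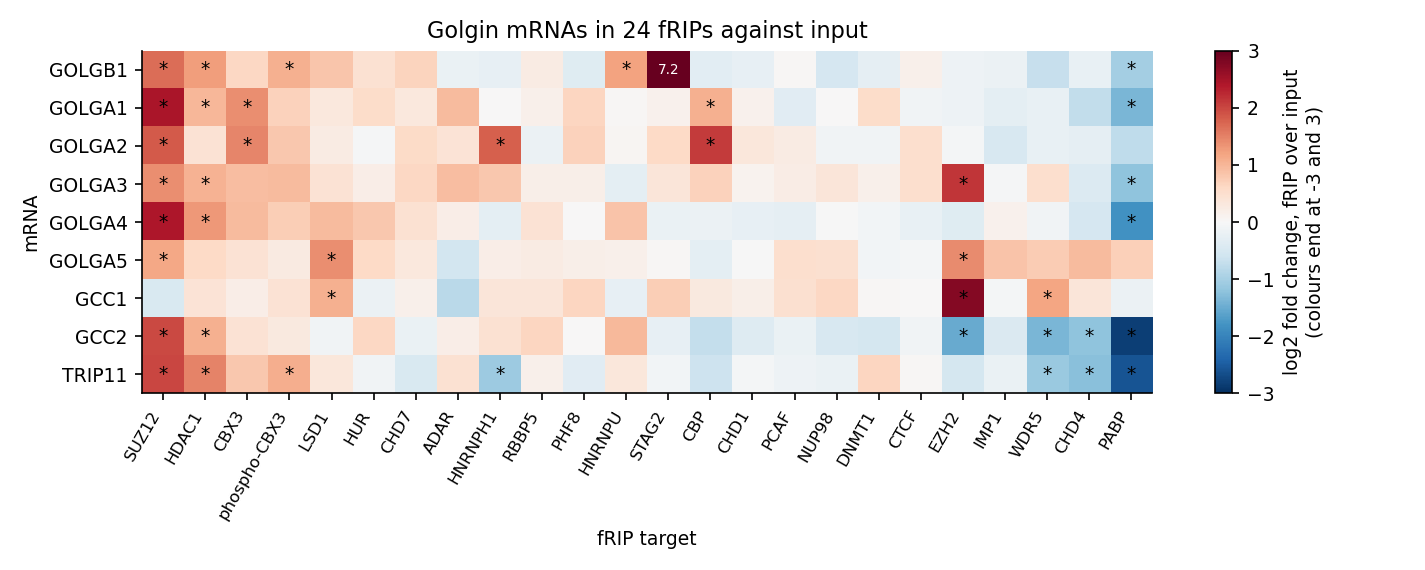
Log2 fold change over input of the 9 golgin mRNAs (rows) in the 24 fRIPs (columns), with colours that end at −3 and 3. SUZ12 fRIP is high for 8 mRNAs and PABP fRIP low for 6, and the STAG2 column stands out in the GOLGB1 row, where the value is 7.18.

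SUZ12 fRIP was the fRIP richest in golgin mRNAs, and with STAG2 left aside it held the highest level of GOLGB1, GOLGA1, GOLGA4, GCC2 and TRIP11. SUZ12 is a core subunit of Polycomb repressive complex 2 (PRC2), which methylates histone H3. Of the 9 mRNAs, 8 were called higher, where 15.3% of all genes were, and their median log2 difference was 1.84 beside 0.01 over all genes. GOLGA1 stood at 105, 126 and 119 FPKM, with a log2 difference of 2.45 (SE 0.13, limma adjusted p = 2.1e-24). All 3 libraries lay far above its highest input of 23.7. GOLGA4 stood at 281, 325 and 287 FPKM, with a log2 difference of 2.44 (SE 0.14, limma adjusted p = 8.1e-23).

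The other GRIP-domain golgins went opposite ways in SUZ12 fRIP. GCC2 stood at 179.8, 181 and 180.1 FPKM, nearly equal in the 3 libraries and above all inputs, with a log2 difference of 1.98 (limma, adjusted p = 4.69e-19). GCC1 stood at 8.41, 12.5 and 11.2 FPKM, with −0.47 (limma, adjusted p = 0.00115), a change below 2-fold. It was thus the one golgin mRNA not called higher. Of the cis-side golgins, GOLGA2 stood at 224, 248 and 213 FPKM, with 1.84, and TRIP11 at 69.3, 69.1 and 72.8 FPKM, with 2.01. Of the others, GOLGB1 stood at 52.2, 66.2 and 51.4 FPKM, with 1.68, and GOLGA3 at 79.5, 98.2 and 95.6 FPKM, with 1.39. GOLGA5 had the smallest called difference, at 25.5, 33.4 and 25.9 FPKM, with 1.16. The adjusted p-values of these 5 in limma ran from 6.83e-19 to 7.82e-12, and none of their SUZ12 libraries overlapped the inputs.

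The isoforms of the golgin genes rose in SUZ12 fRIP in several classes. Of 59 isoforms of the relatives tested, 38 were called higher and 2 lower, where 21.3% of all isoforms were called higher and 6.47% lower, and for GOLGB1 the count was 5 of 8. Of the relatives' retained-intron transcripts, 12 of 15 were called higher, with a median log2 difference of 1.88, and of their coding transcripts 17 of 30, with a median of 1.07. The retained-intron transcript of GOLGB1, ENST00000472829.1, rose from a mean of 0.347 FPKM in input to between 10.1 and 18.5 FPKM, a log2 difference of 3.37. Retained-intron transcripts made up 1.99% of the GOLGB1 FPKM in input (lowest 0.0%, highest 5.08%, n = 9) and 22.7% in SUZ12 fRIP (19.4% to 27.9%, n = 3). For GOLGA2 the share went from 20.7% in input to 56.3%, without overlap. For GOLGA1 it went the other way, from 33.1% to 4.65%, so retained-intron shares did not move one way in all golgin genes. Shares are descriptions with no test, and depend on how the authors' tool divided shared reads.

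Other long coiled-coil mRNAs rose with the golgins in SUZ12 fRIP. Of the 28 genes of other places, 24 were called higher and 0 lower, with a median log2 difference of 1.82, where 15.3% of all genes were called higher. CEP290 and CEP152, which encode centrosomal proteins, stood at 2.74 and 2.68, TPR, a nuclear pore protein, at 2.52 and CNTRL, another centrosomal protein, at 2.51. Of the COG complex, 6 of 8 were called higher, with COG5 at 2.40 and COG6 at 2.04 and a median of 1.41. The other Golgi matrix and tether genes split, with 6 higher and 3 lower of 20, where 8.60% of all genes were called lower. TMF1, which encodes a coiled-coil protein of the Golgi, stood at 2.03, CUX1, which encodes a homeobox transcription factor and, as an alternative product, a coiled-coil protein of the Golgi that the gene value does not separate, at 2.01, GORAB at 1.86, and SCOC at −1.80. The partner GTPases and adaptors went the other way, with 0 higher and 4 lower of 12 and a median of −0.44. ARF1, a GTPase of Golgi coat formation, stood at −1.62, the ARFRP1 partner SYS1 at −1.10, and RAB1A and ARF4 at −1.08 each.

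The direction in SUZ12 fRIP followed the number of exons among coding genes in general. Over 8998 coding genes at 5 FPKM or more in input, 27.4% were called higher. The share was 2.02% of 446 genes with 1 or 2 exons, 7.88% of 4011 with 3 to 9, 35.8% of 3106 with 10 to 19 and 71.8% of 1435 with 20 or more. The median log2 difference rose along the same bins, from −0.97 to −0.36, 0.69 and 1.43. All 7 golgin genes with 20 or more exons were called higher, as was GOLGA5 with 13, and GCC1 with 2 was not. This description by exon number was chosen after seeing the data. Spearman's rho of the log2 difference across these genes was 0.68 with exon number, 0.50 with gene span, 0.49 with transcript length and 0.28 with GAAGAA copies per kb. Genes are not independent replicates, these features go together, and their parts in the result were not tested here. The study had already reported, on these same data, that SUZ12 fold changes related to exon number more than to transcript length. With no test against other genes of like structure, the golgin values are not shown to be particular to golgins.

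**Figure D4:**
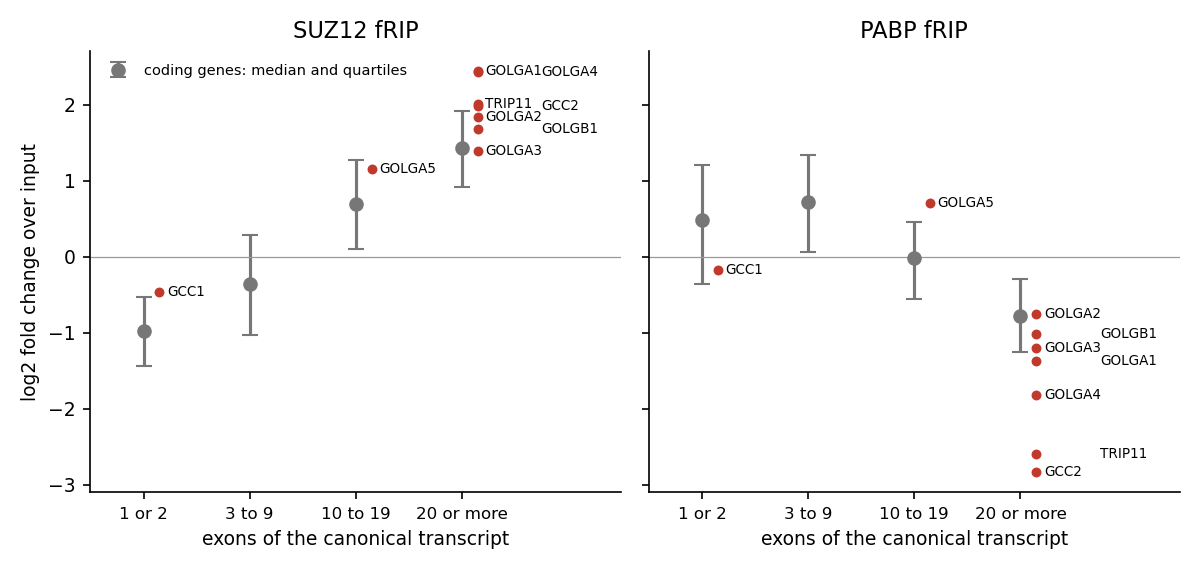
Log2 fold change over input by the number of exons of the canonical transcript, for coding genes at 5 FPKM or more in input (median and quartiles) and for each golgin mRNA (points). In SUZ12 fRIP the medians rise from −0.97 to 1.43 with exon number, and GCC1, with 2 exons, lies below 0.

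EZH2 fRIP, with 2 libraries, gave another set of golgin mRNAs. EZH2 is the methyltransferase of PRC2. There 3 of the 9 mRNAs were called higher, where 10.5% of all genes were, and 1 lower, where 9.13% were. GCC1 stood at 119 and 96.3 FPKM, far above its inputs, with a log2 difference of 2.75 (limma, adjusted p = 5.57e-24). GOLGA3 stood at 171 and 138 FPKM, with 2.14 (limma, adjusted p = 2.49e-17), and GOLGA5 at 40.0 and 28.4 FPKM, with 1.42 (limma, adjusted p = 4.42e-12). GCC2, by contrast, fell to 14.9 and 15.2 FPKM, below its lowest input of 33.0, with −1.52 (limma, adjusted p = 9.43e-12). The remaining mRNAs were not called, and GOLGB1 stood at 15.95 and 14.04 FPKM, with −0.16. Among coding genes, 38.1% of those with 1 or 2 exons were called higher in EZH2 fRIP and 11.9% lower. Of those with 20 or more, 11.6% were called higher and 2.44% lower. Spearman's rho of the log2 difference was 0.007 with exon number and 0.29 with transcript length. The study had reported that EZH2 preferred longer transcripts.

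The difference between the PRC2 subunits was itself compared, a contrast added after their values were seen. Of the 9 mRNAs, 7 were called, where 31.6% of all genes were called in either direction. GCC2 was higher in SUZ12 than in EZH2 fRIP by a log2 difference of 3.50 (limma, adjusted p = 8.57e-24), GOLGA4 by 2.81, GOLGA1 by 2.59, TRIP11 by 2.53, GOLGA2 by 1.90 and GOLGB1 by 1.84 (limma, adjusted p = 3.97e-09). GCC1 went the opposite way, at −3.22 (limma, adjusted p = 2.2e-24). GOLGA3, at −0.76 (limma, adjusted p = 0.000632), and GOLGA5, at −0.26 (limma, adjusted p = 0.239), were not called.

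HDAC1 fRIP was enriched in golgin mRNAs with smaller differences. HDAC1 is a histone deacetylase. There 6 golgin mRNAs were called higher, where 8.42% of all genes were, and none lower. Among coding genes, 26.3% of those with 20 or more exons were called higher in HDAC1 fRIP and 3.94% of those with 3 to 9. Spearman's rho of the log2 difference was 0.52 with transcript length and 0.48 with exon number. The study had reported that HDAC1 preferred longer transcripts. Whether golgin mRNAs differ from other mRNAs of like structure was not tested. TRIP11 stood at 50.3, 48.0 and 48.9 FPKM, with a log2 difference of 1.495 (limma, adjusted p = 2.82e-13). GOLGA4 stood at 155, 124 and 128 FPKM, with 1.30 (limma, adjusted p = 1.31e-11), and GOLGB1 at 44.8, 43.7 and 36.4 FPKM, with 1.25 (limma, adjusted p = 4.31e-08). In these 3 genes the HDAC1 libraries all lay above every input. GCC2, at 1.07, GOLGA3, at 1.05, and GOLGA1, at 1.01, were close to the threshold, and GOLGA5, GOLGA2 and GCC1, at 0.59, 0.42 and 0.40, were below it. With each library centred on its median over all genes tested, which moves HDAC1 by 0.29, 2 of the 6 calls remained, TRIP11 and GOLGA4. Against input set 1 alone 3 remained, and GOLGA4 (0.99), GOLGB1 (0.95) and GCC2 (0.83) were not called. Without HDAC1 replicate 1 the difference of GOLGA1 was 0.98 and that of GOLGA3 0.99. GOLGA1 also fell short without HDAC1 replicate 2 (0.999), input set 1 replicate 1 (0.98), and input set 2 replicates 2 (0.996) and 3 (0.97).

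The other long coiled-coil mRNAs tended higher in HDAC1 fRIP too, though most of them were not called. Of the 28 coiled-coil genes of other places, 10 were called higher, where 8.42% of all genes were, and 0 lower. The called genes were led by the centrosomal PCNT at 2.09, CEP152 at 2.08, AKAP9 at 1.47 and CEP250 at 1.37. The COG complex had 1 call, COG5, at 1.24. Of all genes, 5.35% were called lower. The partner GTPases and adaptors had 1 such call, ARF4, at −1.27, and the matrix and tether genes had 2 higher (GORAB at 1.21, TMF1 at 1.18) and 2 lower (SCOC at −1.22, GOLPH3 at −1.14). The list medians were 0.93, 0.66, −0.63 and 0.10, beside 0.08 over all genes.

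PABP fRIP was depleted of most golgin mRNAs. PABP binds the poly(A) tails of mRNAs. Of the 9, 6 were called lower, where 14.7% of all genes were, and none higher, and their median log2 difference was −1.20 beside −0.15 over all genes. GCC2 fell to 5.20, 6.505 and 4.76 FPKM, with −2.83 (limma, adjusted p = 5.81e-25), and TRIP11 to 2.17, 2.23 and 1.48 FPKM, with −2.60 (limma, adjusted p = 4.87e-23). These were the lowest levels of both mRNAs in any fRIP. GOLGA4 fell to 13.0, 14.6 and 16.5 FPKM, with −1.81, GOLGA1 to 7.30, 7.28 and 7.36 FPKM, with −1.37, and GOLGA3 to 12.1, 16.1 and 14.9 FPKM, with −1.20. GOLGB1 stood at 7.75, 6.72 and 9.18 FPKM, with −1.01 (limma, adjusted p = 2.5e-06).

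Not every golgin mRNA was lower in PABP fRIP. GOLGA5 stood at 21.4, 19.95 and 19.6 FPKM, above its highest input, with a log2 difference of 0.71 below 2-fold (limma, adjusted p = 2.75e-06). GCC1 stood at 12.8, 13.4 and 13.1 FPKM, with −0.18 (limma, adjusted p = 0.226), and GOLGA2 at 35.4, 36.5 and 38.6 FPKM, with −0.75 (limma, adjusted p = 3.36e-05), below 2-fold. Centring, which moves PABP by −0.49, left 3 lower calls (GOLGA4, GCC2 and TRIP11) and made 1 higher, GOLGA5. The GOLGB1 call was lost without PABP replicate 2 (−0.92) and without input set 1 replicate 1 (−0.97), 2 (−0.99) or 3 (−0.97).

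The coiled-coil genes of other places were lower in PABP fRIP as well, with 18 of 28 called lower and 0 higher and a median of −1.15. ERC1, CENPE, CEP152 and EEA1 led, at −2.21, −2.20, −2.09 and −1.99. Of the COG complex, COG5 (−1.54) and COG1 (−1.12) were called lower. Of the partner GTPases and adaptors, ARF1 (1.33) and ARF4 (1.23) were called higher and none lower, with a median of 0.75, where 11.1% of all genes were called higher. Of 20 matrix and tether genes, 2 were called lower, TMF1 (−1.61) and CUX1 (−1.08), and 2 higher, among them GOLGA7 (1.36). Over all genes 14.7% were called lower and 11.1% higher, so these counts do not exceed the general shares. Over coding genes, 37.6% of those with 20 or more exons were called lower and 5.41% of those with 3 to 9, and Spearman's rho of the log2 difference with transcript length was −0.66.

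Smaller sets of golgin mRNAs were called in 8 further CAP and RBP fRIPs. GOLGA2 was the most enriched in CBP fRIP, an acetyltransferase, at 247, 255 and 311 FPKM, with a log2 difference of 2.09 (limma, adjusted p = 1.02e-17). GOLGA1 was called there too, at 44.1, 44.5 and 44.6 FPKM, with 1.08, where 9.08% of all genes were called higher. Both mRNAs were also called in CBX3 fRIP, a heterochromatin protein, where 7.45% of genes were called higher. GOLGA2 stood at 163, 190.4 and 174 FPKM, with 1.47, and GOLGA1 at 52.9, 58.7 and 54.9 FPKM, with 1.39. All libraries of this pair lay above every input in both fRIPs.

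In HNRNPH1 fRIP, a splicing regulator, GOLGA2 was called higher, at 234, 229 and 201 FPKM, with 1.80 (limma, adjusted p = 1.39e-15), where 24.5% of genes were called higher. TRIP11 was called lower there, at 8.38, 6.91 and 6.66 FPKM, with −1.10, where 7.90% of genes were called lower, and this call was lost against input set 2 alone (−0.97) and set 3 alone (−0.98). With centring, which moves HNRNPH1 by 0.73, GOLGA2 stayed called at 1.07 and TRIP11 at −1.84. GOLGA4 was then called lower as well, at −1.03. In HNRNPU fRIP, a nuclear matrix protein, GOLGB1 was called higher, at 36.6, 48.2 and 37.1 FPKM, with 1.21, where 13.1% of genes were. With centring, which moves HNRNPU by 0.59, the call was lost at 0.62. In phospho-CBX3 fRIP, GOLGB1 stood at 38.2, 41.9 and 30.2 FPKM, with 1.07, and TRIP11 at 35.8, 42.6 and 32.8 FPKM, with 1.09, where 2.58% of genes were called higher. Both calls were lost without phospho-CBX3 replicate 2, at 0.97 and 0.99, and that of GOLGB1 also without input set 2 replicate 3, at 0.99.

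WDR5, a subunit of histone methyltransferase complexes, and CHD4, a nucleosome remodeler, each had GCC2 and TRIP11 called lower against the common inputs. In CHD4 fRIP, GCC2 stood at 22.1, 21.6 and 13.9 FPKM, with −1.22, and TRIP11 at 6.84, 7.12 and 5.35 FPKM, with −1.26, where 9.79% of genes were called lower. In WDR5 fRIP, GCC2 stood at 17.8, 17.5 and 15.5 FPKM, with −1.36, and TRIP11 at 9.66, 7.61 and 4.94 FPKM, with −1.12, where 6.71% were called lower. These 4 calls were lost with centring, which brought GOLGA5 past the threshold in the other direction in CHD4 (1.36) and WDR5 (1.14) fRIP, and that of TRIP11 in WDR5 fRIP also without WDR5 replicate 3, at −0.89. GCC1 was called higher in WDR5 fRIP, at 37.1, 37.2 and 32.7 FPKM, with 1.19 (limma, adjusted p = 8.93e-12), where 3.90% of genes were called higher. In LSD1 fRIP, a histone demethylase, GOLGA5 stood at 33.9, 35.8 and 29.5 FPKM, with 1.38, and GCC1 at 35.7, 28.8 and 33.2 FPKM, with 1.06, where 0.814% of genes were called higher. Without LSD1 replicate 1 the GCC1 difference was 0.998, just under the threshold, and with centring, which moves LSD1 by −0.41, 4 golgin mRNAs were called higher, where 4.76% of genes were.

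The profiles of the golgin mRNAs over the fRIPs are compared as a description. Over the 23 fRIPs other than STAG2, the member closest to GOLGB1 was GOLGA4 (Pearson r of protein means on the log2 scale 0.889), then GCC2 (0.799), TRIP11 (0.794) and GOLGA1 (0.624). GOLGA3 (0.378), GOLGA2 (0.358) and GOLGA5 (0.197) followed, and GCC1 was the farthest (−0.187). Over all 36 pairs of members r ran from −0.378 to 0.889, with a median of 0.429. Of 10671 other genes at 5 FPKM or more in input, the most like GOLGB1 were DST (0.882), CNTRL (0.875), ANKRD26 (0.863), ZCCHC6 (0.857) and VPS13C (0.856), and the median gene was at −0.04. For the mean of the 8 relatives over all 24 fRIPs the most like were RAPGEF6 (0.941), ARID4A (0.935), DOPEY1 (0.932), CEP85L (0.929) and ERCC6 (0.927), while GOLGB1, with STAG2 in its profile, was at 0.308. The fRIPs share input libraries, cells and library depth, so these values carry no p.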

How the data were processed

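fRIP and input RNA of K562 was depleted of ribosomal RNA and sequenced as paired reads of 31 bases. The authors aligned reads with TopHat to hg19 and estimated FPKM per gene and isoform on GENCODE 18 with Cuffdiff 2. Per the labels, CASAVA 1.4, TopHat, Cuffdiff and Cuffnorm were used, while filters and the use of strand are not given in these sources. The deposited FPKM were used as given, and 0 columns of values were left out. The authors' comparison tables hold fold changes and p-values of their own and were not used.

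Here limma 3.58.1 (R 4.3.3) was fitted once with an intensity trend to log2(FPKM + 1) of 79 libraries, after a minimum of 1 FPKM in 2 libraries, with Benjamini-Hochberg adjustment per comparison over all genes or isoforms tested. Exact permutation tests, two-sided, used scipy 1.17.1. Isoform shares set values below the smallest step to 0. Gene features came from GENCODE 44 on GRCh37, which is hg19, where 24 of the 69 isoforms had an unchanged version and 3 had no match. The fit was tested on simulated data. Members and gene lists were chosen with earlier results of these data known. Named are the 9 members, and of each list at most 4 called genes with the largest change in STAG2 fRIP and in fRIPs with 4 or more members called one way, and the 5 genes of most like profile. Low values lay within 0.1 of a whole fragment in 95.9% to 99.0% of cases, which gave the depth, and the precision of low FPKM follows from it. Replicate numbers were tested for pairing with input. In 4 of 22 proteins with 3 numbered libraries (CHD1, NUP98, PCAF and WDR5) every pair correlated over 0.1 with one input set (0.129 to 0.599), and the numbers were taken to pair the samples there. Alternatives were other pseudocounts and filters, centring, each input set alone, a replicate block, no minimum fold and leaving out each library. Some genes of the lists and some sequence windows are not reported here.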

Additional observations from a re-analysis of the deposited data

Results flagged for a closer look

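GOLGA2 stood at 42.6 FPKM in input set 2 replicate 3, below the other 8 input libraries, which ran from 61.9 to 70.7. Chance flags about 1 in 20 such groups, and 9 genes were looked at in input.

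The difference between SUZ12 and EZH2 fRIP, compared after the values were seen, was past the threshold for 7 of the 9 golgin mRNAs in limma. It was 3.50 for GCC2, 2.81 for GOLGA4, 2.59 for GOLGA1, 2.53 for TRIP11, 1.90 for GOLGA2, 1.84 for GOLGB1 and −3.22 for GCC1, on the log2 scale and positive where SUZ12 was higher. EZH2 fRIP had 2 libraries.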

How the results depend on the processing

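The 0 calls among the relatives in STAG2 fRIP against input held under every alternative run except no minimum fold, which gave 2. Against the other 23 fRIPs no minimum fold also gave 2, and the count was 0 with the other pseudocounts and filters, centring, the replicate block and either STAG2 library left out. No library of the other 23 fRIPs was left out there, and the input libraries do not enter that comparison. The direction of relatives near 0 in STAG2 fRIP was not stable. TRIP11 turned to 0.058 with input set 2 alone and 0.042 with set 3, and GOLGA1 to −0.036 and GOLGA4 to 0.014 with set 3. With a library left out, TRIP11 ran from −0.18 to 0.026 and GOLGA5 from −0.054 to 0.12. Both turned without STAG2 replicate 1, and the far ends came without the STAG2 library without a number, beside −0.12 and 0.057 for the input libraries. The 3 isoform calls became 0 with input set 1 alone and 1 with set 3, and ran from 1 to 3 with a library left out. The list genes called higher in STAG2 fRIP, 1 in all, were 2 with a pseudocount of 0.1 or 0.5, with centring or with input set 2 alone, 3 with set 3 alone or with the replicate block, 12 with no minimum fold, and 1 to 2 with a library left out. Those called lower were 2 with no minimum fold. In the other 23 fRIPs, no minimum fold gave 85 higher and 30 lower in place of 28 and 12, and a library left out gave 26 to 30 and 11 to 12. Of the 40 calls, centring kept 28 and added 14 (10 higher and 4 lower), for 33 higher and 9 lower in all, and input sets 1, 2 and 3 alone kept 34, 37 and 35. The counts with no minimum fold and with centring stand here without the share of all genes called. Dropping the fold threshold adds calls among all genes too, so these counts are not read as a result about golgins. Beside the HDAC1 calls already given, set 1 lost GOLGB1 in HNRNPU (0.91) and phospho-CBX3 (0.77) and TRIP11 in phospho-CBX3 (0.84), set 2 lost TRIP11 in HNRNPH1 (−0.97) and WDR5 (−0.99) and GOLGB1 in PABP (−0.77), and set 3 lost GOLGA1 in CBP (0.92) and HDAC1 (0.85), TRIP11 in HNRNPH1 (−0.98), GCC1 in LSD1 (0.89) and GOLGB1 in PABP (−0.95). The replicate block, which leaves out the STAG2 library without a number, kept all 40 and gave 0 relatives and 2 isoforms in STAG2 fRIP. The cause of these changes was not tested. With 2 STAG2 libraries, changes of the size of those of GOLGA2 and GCC1 rest on 2 values each. FPKM are relative within a library, so a share taken by 1 abundant RNA can lower the others.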
